A study of Homo sapiens with 12 samples.

Results

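The genes described here are 6 STAT genes (STAT2, STAT3, STAT4, STAT5A, STAT5B and STAT6) and 3 SOCS genes (SOCS1, SOCS2 and SOCS3), chosen by symbol in the RNA-seq table of U937 cells. Of the 197782 transcripts of the table, 94 carried one of these 9 symbols, and 49 of the 94 had at least 1 read in the 12 libraries. Of the 49, 21 passed a filter that asked for 10 or more normalized reads in 3 or more libraries, and the other 28 did not. Among the 21, 10 transcripts of 6 genes (SOCS1, SOCS2, SOCS3, STAT3, STAT5B and STAT6) were annotated as protein-coding and were tested among 9016 protein-coding transcripts. The remaining 11 carried other annotations and were tested among all 19373 transcripts that passed the filter. STAT2, STAT4 and STAT5A had no protein-coding transcript past the filter.

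U937 is a human myelomonocytic leukemia cell line. There were 3 libraries from each of 4 groups, which were untreated cells, cells given 200 nM decitabine (DAC), cells given 1 µM all-trans retinoic acid (ATRA) and cells given both drugs at these doses (DAC + ATRA). Decitabine is built into DNA in place of cytosine and traps DNA methyltransferases, and ATRA activates the retinoic acid receptors. According to the labels, all cultures, controls included, grew with 5 ng/ml GM-CSF and 20% fetal calf serum, whereas the study's methods give another serum share and name no GM-CSF for this cell line. The labels name 96 h for the untreated cells and 72 h for the treated ones, whereas the methods give a harvest at 72 h. If the labels hold, time in culture and treatment cannot be told apart in any comparison with untreated cells. The labels give 3 days of treatment for all libraries, controls included. The methods state that ATRA was added with the last dose of DAC, so that the sources differ on how long ATRA was given. All libraries come from 1 cell line, and those of a group are called technical triplicates in the design text, so p-values measure only the spread between these libraries.

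STAT proteins are transcription factors that wait in the cytoplasm until a cytokine receptor is engaged. JAK kinases bound to the receptor then phosphorylate them, and STAT dimers enter the nucleus and switch on target genes. SOCS genes are among these targets, and SOCS proteins bind receptors and JAK kinases and dampen the signal, which makes them a feedback brake. GM-CSF, which the labels but not the methods list for these cultures, signals through JAK2 and mainly STAT5 in myeloid cells.

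Between 8042435 and 10683593 reads were counted per library, and 3 reads equalled 2.50 to 3.71 normalized reads. Pairs of replicates had a chi-square of 3.39 to 15.9 per degree of freedom, so that no library repeated another. Of 10 myelomonocytic markers, 8 passed the filter, while PTPRC was listed at 0 and CD14 stayed at a group mean of at most 1.6. The summed level of the 10 was 61420 to 68650 normalized reads in untreated cells and 38830 to 56309 with DAC. It was 41510.5 to 59348 with ATRA and 35865 to 38656 with DAC + ATRA. From untreated cells to DAC + ATRA, the mean of MPO went from 52578 to 15054, that of ITGAM from 206 to 2796 and that of LYZ from 164 to 1097. Markers of other cell types moved with DAC: the summed level of 5 T cell markers was 2.76 to 10.2 normalized reads in untreated cells, 1019 to 1275 with DAC, 5.46 to 11.6 with ATRA and 812 to 1041 with DAC + ATRA. In bulk RNA, more cells of a type and more RNA per cell cannot be told apart. The T cell sum came almost wholly from CD5 and CD2, and the group means of CD3D, CD3E and CD3G were at most 2.7, 0.3 and 7.4, with all 3 at 0 in untreated cells. For 4 B cell markers the summed level was 133 to 143 in untreated cells, 523 to 538 with DAC, 231 to 375 with ATRA and 1322 to 1404 with DAC + ATRA, nearly all of it CD79A, and MS4A1 had a group mean of at most 1.6. The 3 fibroblast markers summed to 25.5 to 47.1 in untreated cells, 478 to 506 with DAC, 113 to 121 with ATRA and 396 to 457 with DAC + ATRA, with COL1A2 at a group mean of at most 5.4. The 4 epithelial markers summed to 0 to 0.910 in untreated cells, 8.65 to 25.9 with DAC, 0 with ATRA and 12.4 to 23.2 with DAC + ATRA, with CDH1 at 0, and all 3 erythroid markers were at 0. The part of these shifts in the results below was not tested.

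SOCS1, SOCS3, STAT3 and STAT6 rose with DAC, and SOCS2 transcripts in part. With a limma adjusted p under 0.01 as the threshold, 7 of the 10 were higher with DAC than in untreated cells and 0 were lower, where 30.6% of all tested transcripts were called higher and 8.7% lower. They were SOCS1, SOCS3, 3 of 5 SOCS2 transcripts, STAT3 and STAT6. The count was 5 of 10 with library size scaling, with size factors from protein-coding transcripts and with edgeR and TMM, and 4 of 10 with DESeq2. In the same order, 2464, 2402, 2291 and 2273 of all 9016 transcripts were called higher, beside 2763 with the deposited scaling. The 3 SOCS2 transcripts called with DAC, and ENST00000548537 of the same gene, reached 10 normalized reads only in DAC or DAC + ATRA libraries. SOCS1 did so in no untreated library. All of these passed the filter through groups where they are high, so that their calls, here and below, are a description only. With ATRA alone, SOCS3 and STAT6 were higher and 0 were lower (backgrounds 6.47% and 2.67%). With DAC + ATRA, 5 were higher and 0 lower than in untreated cells (32.6% and 14.2%), and 8 were higher and 0 lower than with ATRA alone (25.9% and 8.88%). SOCS3 was the 1 member that was higher with DAC + ATRA than with DAC alone, and 0 were lower (6.08% and 5.26%). STAT5B passed in none of these comparisons, although DESeq2 called it lower with DAC + ATRA than with ATRA (-0.25, adjusted p = 0.00811), so that DESeq2 had 7 members higher and 1 lower there.

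By the plainer measure of libraries that did not overlap, 8 of the 10 lay wholly above untreated cells with DAC (41.9% of all transcripts did) and 7 with DAC + ATRA (42.8%). With ATRA 3 lay above and 3 below (14.8% and 13%), the 3 below being SOCS2 transcripts. Between DAC + ATRA and DAC, 2 lay above and 1 below (15.5% and 19.6%), and between DAC + ATRA and ATRA 9 lay above and 1, STAT5B, below (35.7% and 16.5%). The filter limit given above holds here too, for SOCS1 against untreated cells and for SOCS2 transcripts other than ENST00000536696.

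The scale of these changes depends on the normalization. Over all tested transcripts, the middle log2 fold change was 0.22 for DAC and 0.20 for DAC + ATRA with the size factors in the deposited values, and 0.02 and 0.06 with TMM factors in edgeR. Of the DAC calls, 77.9% were higher with the deposited scaling and 58.8% with TMM. Relative to the median of all transcripts, the DAC change of SOCS3 was 1.03 on the log2 scale under both scalings, that of STAT6 0.96 under both, and that of STAT3 0.88 with the deposited scaling and 0.87 with TMM. The count of members called with DAC fell from 7 to 4 when untreated library 3, DAC library 4 or DAC library 6 was left out, and in each case the transcripts lost were those of SOCS2. Libraries are numbered here as in the deposited table.

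**Figure D1:**
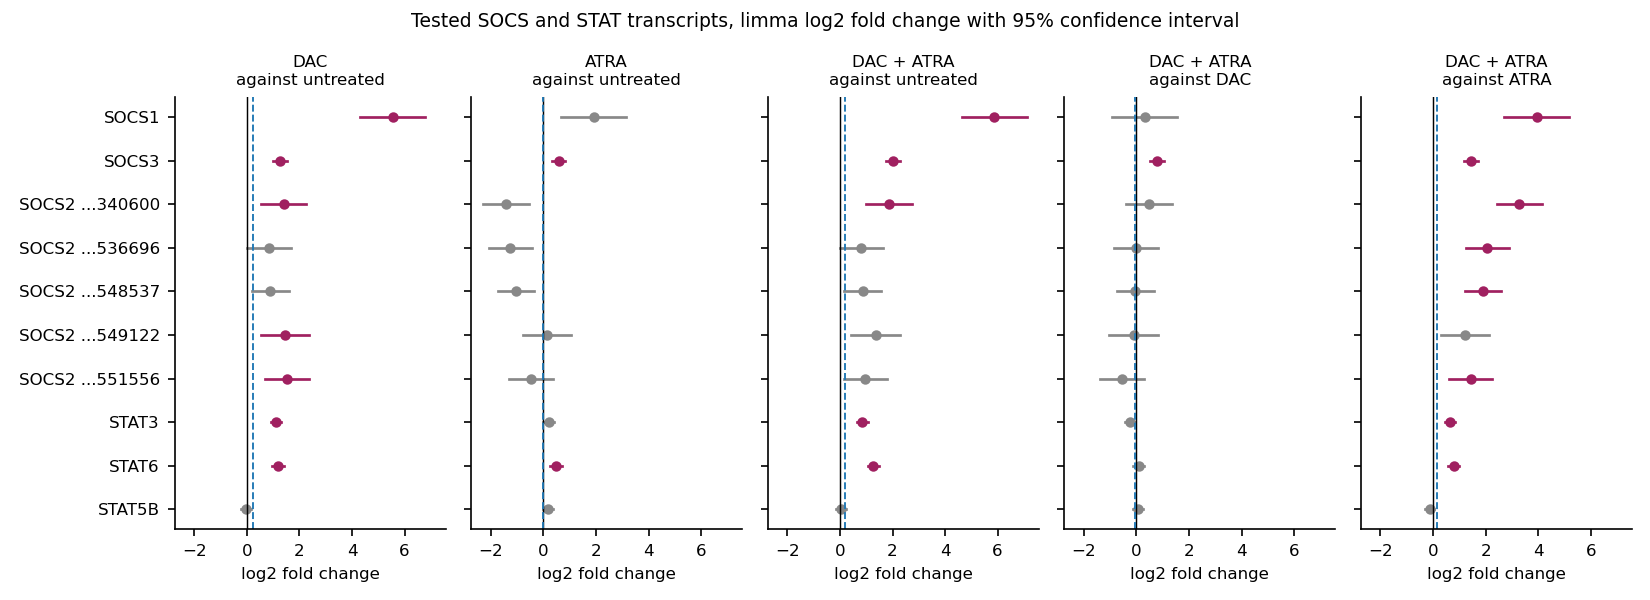
Log2 fold change (horizontal axis) of the 10 tested SOCS and STAT transcripts in 5 comparisons, from the limma fit over 9016 transcripts. Points are estimates, bars are 95% confidence intervals, purple marks an adjusted p under 0.01, and the dashed line is the median of all tested transcripts. SOCS1 stands farthest to the right with DAC (5.55) and with DAC + ATRA (5.86), and STAT5B lies near 0 in each panel.

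SOCS1 had the largest change of the 10 tested transcripts in the comparisons with untreated cells. SOCS1 (chr16:11254417-11256204, minus strand, hg38) encodes an inhibitor that blocks the catalytic site of JAK kinases. Its values in normalized reads were 6.43, 0 and 3.69 in untreated cells, 125, 153 and 183 with DAC, 14.8, 16.4 and 5.83 with ATRA, and 185, 194 and 189 with DAC + ATRA. The DAC and DAC + ATRA libraries stood above all untreated and all ATRA libraries, and ATRA library 9 lay below the highest untreated library. The group means were 3.38 ± 3.23 (SD, n = 3) in untreated cells and 154 ± 28.9 with DAC, a ratio of 45.6, and the untreated mean rests on 11 reads in all. On the log2 scale the change was 5.55 with DAC (SE 0.57, limma adjusted p = 1.98e-06) and 5.86 with DAC + ATRA (SE 0.57, limma adjusted p = 8.68e-07). For DAC it ran from 4.70 to 6.14 when each library was left out in turn. ATRA alone gave 1.92 (95% confidence interval 0.68 to 3.15, limma adjusted p = 0.0392), which missed the threshold. Over libraries left out the ATRA value ran from 1.06 (without untreated library 2, not called) to 2.51 (without untreated library 1, called). DAC + ATRA was 0.31 above DAC, with an interval from -0.92 to 1.55, so that the added effect of ATRA on SOCS1 could not be resolved in this fit, although the 3 DAC + ATRA libraries lay above the 3 DAC libraries.

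Since the methyltransferases that DAC traps act on cytosines in CG dinucleotides, the promoters of the member with the largest rise and of the member with no call are printed, as the 250 bases before the start in RefSeq (GRCh38.p14), with each CG in capitals. The first is chr16:11256205-11256454 and the second chr17:42276392-42276641, both read on the minus strand.
SOCS1: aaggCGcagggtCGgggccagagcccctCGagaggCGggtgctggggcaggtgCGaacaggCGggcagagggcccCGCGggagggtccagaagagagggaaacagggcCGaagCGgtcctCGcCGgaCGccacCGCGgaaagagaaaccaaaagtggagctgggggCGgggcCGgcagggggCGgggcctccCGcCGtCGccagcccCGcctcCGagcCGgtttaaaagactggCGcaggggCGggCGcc
STAT5B: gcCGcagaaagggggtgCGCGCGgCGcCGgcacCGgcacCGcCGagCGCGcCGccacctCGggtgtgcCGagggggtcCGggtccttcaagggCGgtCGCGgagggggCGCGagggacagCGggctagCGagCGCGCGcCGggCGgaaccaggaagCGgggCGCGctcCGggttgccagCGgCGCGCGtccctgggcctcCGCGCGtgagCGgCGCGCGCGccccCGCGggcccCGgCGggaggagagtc
The SOCS1 window held 27 CG dinucleotides and the STAT5B window 47, where the median over 35116 promoter windows was 11. The windows of the other genes held 21 (STAT2), 18 (STAT3) and 11 (STAT6), with 30 and 13 for the 2 windows of SOCS3, 10 and 4 for those of STAT4 and 1, 4 and 29 for those of STAT5A. The windows of SOCS1, STAT3 and STAT5B end at the start of the transcript whose values are given here, but those of STAT2, STAT6 and SOCS3 do not, and the STAT6 window (chr12:57110290-57110539) lies inside ENST00000300134, which starts at 57111362. Methylation was not measured in these libraries, and a relation of these numbers to the response was not tested.

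Promoter entries were found for 8 of the 9 genes, in 12 windows. STAT proteins bind the GAS element, searched as TTCNNNGAA, which reads the same on both strands, and complexes holding STAT2 bind the ISRE, whose core was searched on both strands. None of the 12 windows held the GAS letters, which 6.57% of all windows did. The ISRE core was found in 1 window, that of SOCS1, at bases 113 to 104 before the start, and 3.02% of all windows held it. It is shown in capitals with 10 flanking bases on each side.
SOCS1 ISRE core: cgccaccgcgGAAAGAGAAAccaaaagtgg
Such a match describes letters only, and a window without a match says nothing of sites elsewhere.

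SOCS3 rose with each treatment, and it was the tested transcript that was higher with DAC + ATRA than with DAC alone. SOCS3 (chr17:78356778-78360077, minus strand) encodes the inhibitor that shuts down the gp130 receptors of the interleukin-6 family. Its values were 122, 125 and 119 normalized reads in untreated cells, 289, 300.1 and 287 with DAC, 193, 202 and 156 with ATRA, and 453, 549 and 500.5 with DAC + ATRA. No group overlapped another, and the order was untreated, ATRA, DAC and DAC + ATRA. The log2 fold change was 1.25 (SE 0.13, limma adjusted p = 4.26e-08) with DAC, 0.58 (SE 0.13, adjusted p = 0.00261) with ATRA and 2.02 (SE 0.13, adjusted p = 1.99e-11) with DAC + ATRA. Against DAC alone, DAC + ATRA was higher by 0.77 (SE 0.13, adjusted p = 0.000116), and against ATRA alone by 1.45 (adjusted p = 5.55e-09). The ATRA call was lost when untreated library 1, 2 or 3 or ATRA library 7 or 8 was left out. Over all libraries left out, the log2 fold change ran from 0.50 to 0.69, the highest without ATRA library 9, where the call was kept.

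**Figure D2:**
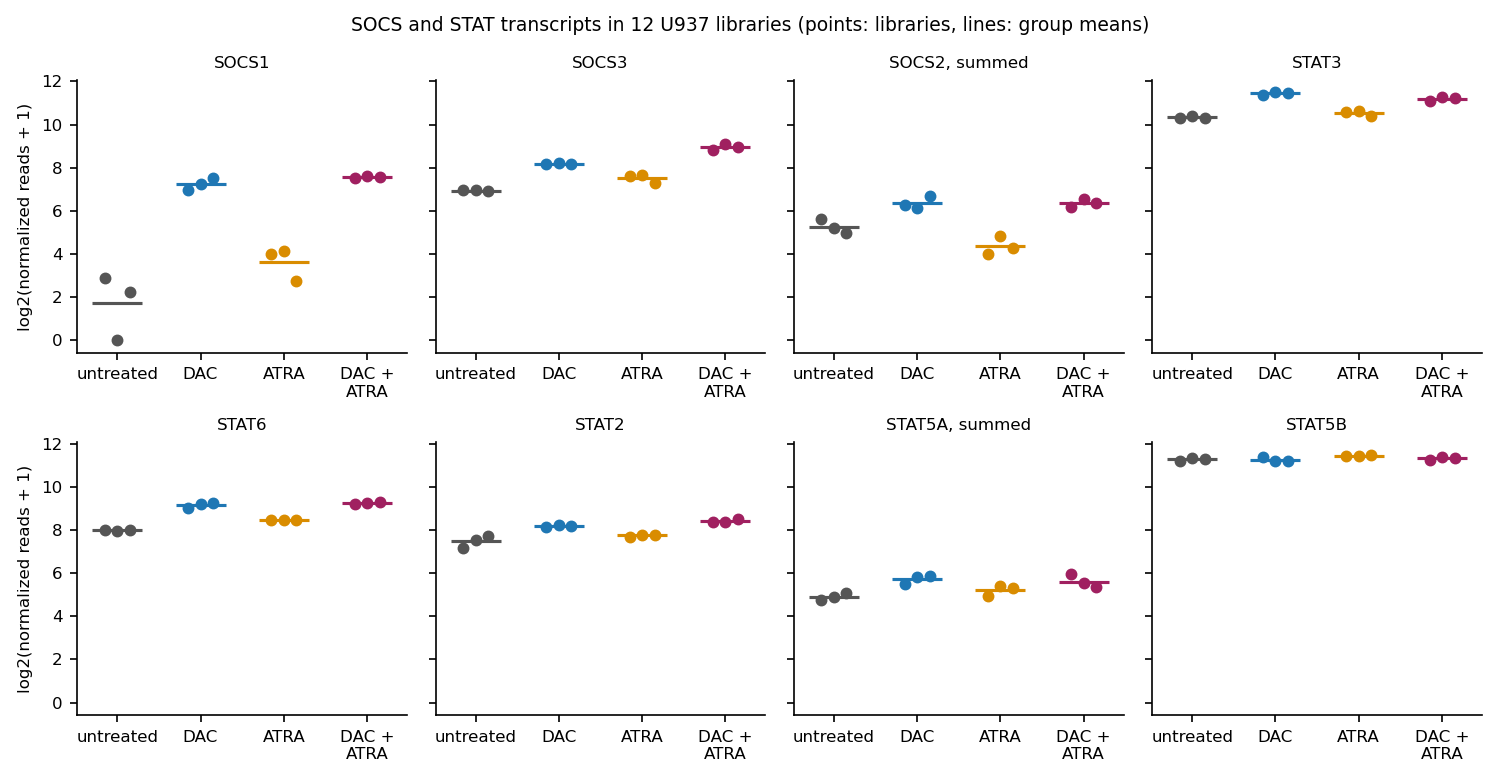
Normalized read count of 8 SOCS and STAT genes in 12 libraries, as log2(normalized reads + 1) on the vertical axis, by treatment on the horizontal axis. Points are libraries, lines are group means, and SOCS2 and STAT5A are sums over their transcripts. SOCS1 rises from near 0 in untreated cells to above 100 normalized reads with DAC, SOCS2 lies lowest with ATRA, and STAT5B stays between 2340.0 and 2811.

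Summed over its transcripts, SOCS2 was higher with DAC and lower with ATRA than in untreated cells. SOCS2 (chr12:93569814-93583487, plus strand) is known as the brake on growth hormone and STAT5 signaling. The summed values were 47.8, 35.5 and 30.5 normalized reads in untreated cells, 76.7, 68.2 and 102 with DAC, 14.8, 27.3 and 18.3 with ATRA, and 71.4, 91.6 and 81.6 with DAC + ATRA. Each ATRA library was below each untreated library, and each DAC or DAC + ATRA library was above. In the fit of values summed by symbol, SOCS2 rose with DAC by 1.10 (SE 0.23, limma adjusted p = 0.000332) and with DAC + ATRA by 1.10 (SE 0.23, adjusted p = 0.000265). With ATRA the sum fell by 0.90 on the log2 scale (SE 0.23, adjusted p = 0.00796), where 2.93% of all 13528 symbols were called lower. DAC + ATRA was above ATRA alone by 2.00 (SE 0.23, adjusted p = 1.63e-07). The interaction of the 2 drugs was 0.90 (95% confidence interval 0.23 to 1.57) and missed the threshold (adjusted p = 0.125).

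The single SOCS2 transcripts were low. The sum was fitted under 1 setting, so that its dependence on single libraries or tools was not tested. The transcript with the highest mean, ENST00000536696, had 22.1, 14.6 and 10.2 normalized reads in untreated cells, 27.0, 16.6 and 45.8 with DAC, 4.22, 10.01 and 4.16 with ATRA, and 31.6, 35.8 and 17.3 with DAC + ATRA. Its DAC libraries overlapped the untreated ones and it was not called with DAC (log2 fold change 0.84, limma adjusted p = 0.0842). ENST00000340600, which starts farthest upstream, had 12 reads over the 3 untreated libraries, 33 with DAC, 3 with ATRA and 46 with both drugs, and rose with DAC by 1.40 (SE 0.42, adjusted p = 0.00808) and with DAC + ATRA by 1.87 (SE 0.42, adjusted p = 0.000651). ENST00000549122 and ENST00000551556 were also called with DAC, at 1.45 (adjusted p = 0.00978) and 1.52 (adjusted p = 0.00319). Under ATRA 3 of the 5 transcripts lay below all untreated libraries, with log2 fold changes of -1.41, -1.25 and -1.04 and adjusted p of 0.0243, 0.0388 and 0.0409, so that none was called. Relative to ATRA alone, 4 of the 5 were higher with DAC + ATRA. Of these, only ENST00000536696 reached 10 normalized reads in untreated or ATRA libraries, and the other calls are a description only. In GENCODE 44 the bases of 4 of these transcripts that no other transcript shares (unshared bases) are short stretches of the 5′ untranslated region, between 10 bases for ENST00000551556 and 385 for ENST00000340600. Whether their reads were counted there is not given in the sources used here. The antisense gene SOCS2-AS1 overlaps 114 of the 254 unshared bases of ENST00000549122, and its main transcript had group means of 7.96, 7.84, 2.75 and 5.92 normalized reads in untreated, DAC, ATRA and DAC + ATRA cells.

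**Figure D3:**
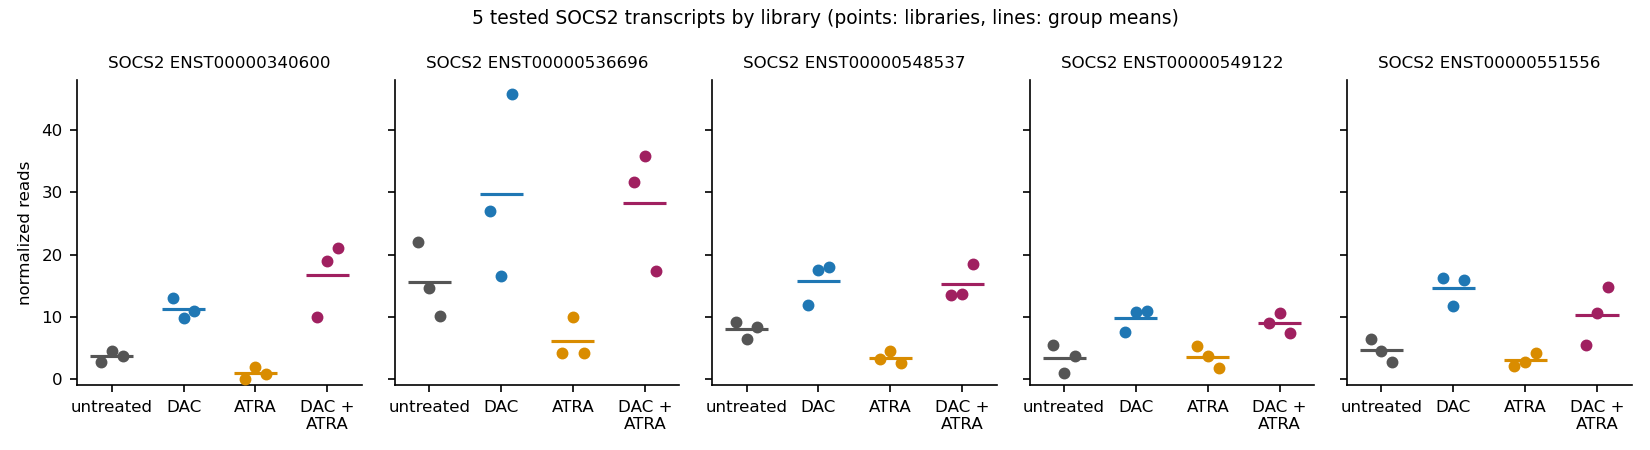
Normalized read count (vertical axis) of the 5 tested SOCS2 transcripts by treatment. Points are libraries and lines are group means. In 3 of the 5 panels the ATRA libraries lie below all untreated libraries, and all values stay at or below 45.8.

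STAT3 was the most abundant of the changed STAT transcripts. STAT3 (chr17:42313324-42388540, minus strand) carries the signal of the interleukin-6 and G-CSF receptors in myeloid cells. The protein-coding transcript ENST00000264657 had 1277, 1355 and 1250.5 normalized reads in untreated cells, 2675, 2872 and 2773 with DAC, 1545, 1589 and 1340.0 with ATRA, and 2179.7, 2483 and 2375 with DAC + ATRA. All DAC libraries lay above all DAC + ATRA libraries, which in turn lay above all untreated and ATRA libraries, and ATRA overlapped untreated. STAT3 rose by 1.10 with DAC (SE 0.09, limma adjusted p = 4.38e-09) and by 0.86 with DAC + ATRA (SE 0.09, adjusted p = 1.33e-07). ATRA alone gave 0.20 (interval 0.00 to 0.40, adjusted p = 0.18). DAC + ATRA was 0.24 below DAC (interval -0.44 to -0.05, adjusted p = 0.0856), which missed the threshold.

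A 1-exon transcript at the 5′ end of STAT3 went the other way. ENST00000590776, annotated without a coding sequence, had 41 reads over the untreated libraries, 20 with DAC, 47 with ATRA and 10 with both drugs. Each DAC + ATRA library (5.42, 3.16 and 1.24 normalized reads) lay below each untreated library (10.1, 9.10 and 18.5). It fell by 1.73 on the log2 scale with DAC + ATRA (SE 0.45, limma adjusted p = 0.00221 among all transcripts), where 16.1% of all 19373 transcripts were called lower. It reached 10 normalized reads only in untreated and ATRA libraries, so that it passed the filter through groups where it is high, and the call is a description only. Another STAT3 transcript, ENST00000462269 with a retained intron, had group means of 11.95, 13.3, 13.6 and 14.97 normalized reads in untreated, DAC, ATRA and DAC + ATRA cells and was not called in any comparison. The 1340 unshared bases of ENST00000590776 lie at chr17:42386939-42388278, and the 1543 of the coding transcript lie almost all in the 3′ untranslated region at chr17:42313324-42314847.

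STAT6 rose with each treatment. STAT6 (chr12:57095408-57132139, minus strand) is the factor that interleukin-4 and interleukin-13 activate. Its protein-coding transcript ENST00000300134 had 255, 247 and 255 normalized reads in untreated cells, 519, 596 and 611 with DAC, 352, 349.6 and 355 with ATRA, and 597, 598 and 630.3 with DAC + ATRA. Only DAC and DAC + ATRA overlapped among the 4 groups. The log2 fold change was 1.18 with DAC (SE 0.10, limma adjusted p = 5.3e-09), 0.48 with ATRA (SE 0.10, adjusted p = 0.00229) and 1.27 with DAC + ATRA (SE 0.10, adjusted p = 1.39e-09). DAC + ATRA exceeded DAC by 0.08, with an interval from -0.13 to 0.30. Leaving out untreated library 2 or 3 cost the ATRA call, at a log2 fold change between 0.47 and 0.49 over all libraries left out.

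The STAT6 count could hold reads of another gene, and other STAT6 transcripts gave the same direction. The 70 unshared bases of ENST00000300134 (chr12:57095408-57095477, 3′ untranslated region) overlap NAB2 on the opposite strand at 69 bases, and the strand setting of the counting is not given in the sources used here. The main NAB2 transcript, ENST00000300131, had a mean of 13.7 normalized reads in untreated cells, 24.7 with DAC, 9.76 with ATRA and 10.9 with both drugs. Another, ENST00000554839, had means of 4.89, 3.78, 2.45 and 1.32 in the same order. Transcripts with retained introns do not overlap NAB2. ENST00000555641 had 83.6, 53.7 and 51.7 normalized reads in untreated cells and 149, 143 and 176 with DAC, and rose with DAC by 1.33 (SE 0.18, limma adjusted p = 1e-06 among all transcripts). ENST00000557781 (90.1 to 102 in untreated cells, 144 to 174 with DAC) rose by 0.74 (SE 0.16, adjusted p = 0.00039), and ENST00000555222 by 1.32 (SE 0.30, adjusted p = 0.0008). All 3 were also called higher with DAC + ATRA, and none of the 3 with ATRA alone.

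**Figure D4:**
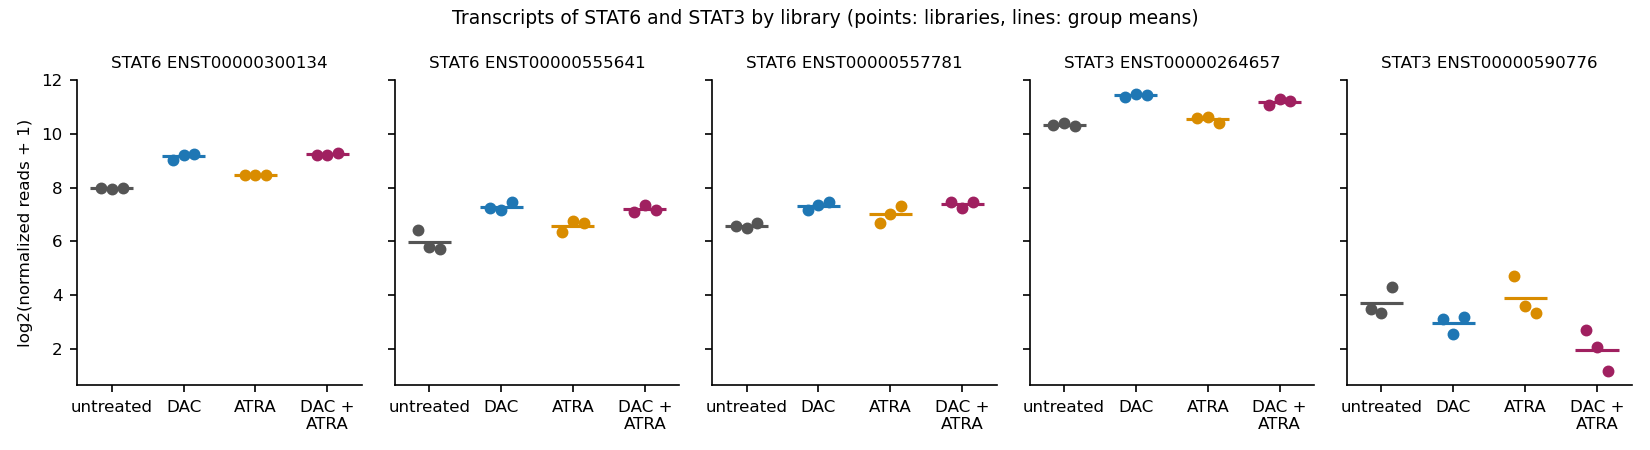
Log2(normalized reads + 1) on the vertical axis of 3 STAT6 and 2 STAT3 transcripts by treatment. Points are libraries and lines are group means. The 3 STAT6 transcripts are higher with DAC and with DAC + ATRA than in untreated cells, whereas the STAT3 transcript ENST00000590776 is lowest with DAC + ATRA.

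STAT2 was read mainly through a transcript without an annotated coding sequence. STAT2 (chr12:56341597-56360203, minus strand) is the partner of the type I interferon response. Of its reads, 94.6% fell on ENST00000556539, whose 139 unshared bases lie at chr12:56349637-56349775. The values were 144, 182 and 211 normalized reads in untreated cells, 279, 297 and 291 with DAC, 204, 218 and 219.7 with ATRA, and 332, 334 and 365 with DAC + ATRA. ATRA overlapped untreated, and the DAC + ATRA libraries lay above all others. Among all transcripts, the log2 fold change was 0.70 with DAC (SE 0.13, limma adjusted p = 0.000109; 22.2% of transcripts called higher), 0.27 with ATRA (adjusted p = 0.231) and 0.95 with DAC + ATRA (SE 0.13, adjusted p = 1.34e-06; background 25.5%). A second STAT2 transcript without a coding sequence, ENST00000557252, had 19 reads in untreated cells and 51 with DAC + ATRA and rose there by 1.54 (SE 0.39, adjusted p = 0.00162). It reached 10 normalized reads in no untreated library, and the call is a description only. The other 3 STAT2 transcripts with reads stayed below the filter.

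Among the 11 member transcripts without a protein-coding annotation, 5 rose with DAC (22.2% of all transcripts called higher), 6 rose and 1 fell with DAC + ATRA (25.5% and 16.1%), and 0 passed with ATRA (5.11% called higher).

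STAT5A and STAT5B, the near-identical pair that GM-CSF activates, lie side by side on chromosome 17. STAT5B (chr17:42199176-42288633, minus strand) had 2379, 2562 and 2507 normalized reads in untreated cells on ENST00000293328, 2625, 2340.0 and 2371 with DAC, 2771, 2794 and 2811 with ATRA, and 2453, 2674 and 2546 with DAC + ATRA. The untreated, DAC and DAC + ATRA libraries overlapped, and the ATRA libraries lay above them. The log2 fold change was -0.02 with DAC (interval -0.20 to 0.16, limma adjusted p = 0.843) and 0.17 with ATRA (interval -0.01 to 0.35, adjusted p = 0.219). For DAC + ATRA it was 0.04 (interval -0.14 to 0.22, adjusted p = 0.695), and its sign turned to -0.10 with TMM factors. Relative to the median of all transcripts, the DAC value of STAT5B was -0.24 with the deposited scaling and -0.25 with TMM, where its adjusted p in edgeR was 0.018. In GENCODE 44 this transcript has 0 bases that no other transcript shares, so that the sequence on which its count rests could not be placed.

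STAT5A (chr17:42287547-42311943, plus strand) was low and spread over 7 transcripts. Its summed values were 25.7, 29.1 and 32.3 normalized reads in untreated cells, 44.3, 55.5 and 57.8 with DAC, 29.6, 41.0 and 39.1 with ATRA, and 60.6, 45.3 and 39.5 with DAC + ATRA. The sum rose with DAC by 0.83 (SE 0.21, limma adjusted p = 0.0021 in the fit by symbol) and with DAC + ATRA by 0.70 (SE 0.21, adjusted p = 0.00649). The largest share of it, 32.3%, came from a transcript with a retained intron, ENST00000587646. ENST00000479417, also with a retained intron, had 18 reads in untreated cells and 51 with DAC and rose by 1.40 (SE 0.41, adjusted p = 0.00689 among all transcripts). It reached 10 normalized reads only in DAC and DAC + ATRA libraries, so that this call too is a description only. The coding transcripts were below the filter and were not tested. ENST00000478897, the highest of those labelled protein-coding, was matched to the annotation by symbol only, so that this label is that of the gene. It had 9 reads in untreated cells, 32 with DAC, 22 with ATRA and 18 with both drugs. ENST00000345506, a coding transcript matched by identifier, had 21, 11, 32 and 9 reads in the same order. The difference between STAT5A and STAT5B was not tested, and reads of such similar genes can be lost or misplaced in counting.

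STAT4 (chr2:191029576-191151596, minus strand), the factor of the interleukin-12 response, had 0 reads in the untreated and ATRA libraries, 1 with DAC and 12 with DAC + ATRA, spread over 4 transcripts. A count of 0 allows up to 3 reads, so that a difference between DAC and untreated cells was not detectable at this depth, and this limit covers counting error only.

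By symbol, 8 of the 9 genes could be tested, and 7 rose with DAC and 7 with DAC + ATRA, STAT5B being the exception in both (backgrounds 28.2% and 31.1% of symbols called higher). With ATRA alone, SOCS3 and STAT6 rose and SOCS2 fell (6.68% called higher).

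The combination was then compared with the sum of the single drugs. Untreated cells enter this comparison, so that the limit from their labelled harvest time holds here too. None of the 10 transcripts passed for the DAC × ATRA interaction in limma, which is 0 when log2 fold changes add up and was called for 2.46% of all transcripts, while 5 had an unadjusted p under 0.05. The share of all transcripts at that unadjusted level was not counted, so that the 5 are a description only. In DESeq2 1 was called and in edgeR with TMM 0 were. STAT3 came nearest with -0.44 (SE 0.13, limma adjusted p = 0.0614), and this is the transcript that DESeq2 called, at -0.39 (adjusted p = 0.00257). It was also called in limma without ATRA library 9. The SOCS2 transcript ENST00000340600 was close behind with the opposite sign, at 1.89 (SE 0.59, limma adjusted p = 0.0718). The other 3 with an unadjusted p under 0.05 were STAT6 at -0.40 (adjusted p = 0.144) and the SOCS2 transcripts ENST00000536696 at 1.23 (adjusted p = 0.266) and ENST00000548537 at 1.00 (adjusted p = 0.285). SOCS3 was at 0.20 (adjusted p = 0.631). On the linear scale, as a description, SOCS3 gained 169.8 normalized reads with DAC, 61.6 with ATRA and 379 with both drugs, which exceeds the sum of the single gains by 148 ± 31.6 (SE). STAT3 gained 1479 with DAC, 197 with ATRA and 1052 with both drugs, an excess of -625 ± 134. For SOCS1 the excess was 26.5 ± 17.3 and for STAT6 -67.1 ± 30.7.

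The other genes of the pathway were read from 4 lists, using the highest protein-coding transcript of each gene. A gene without such a transcript past the filter was not tested, which does not mean that it had no reads. Summed over its transcripts, CISH reached 726 normalized reads in a library, CSF3R 1052 and IRF9 318, while CSF2RA stayed at 0. Over all 7622 genes read in this way, 33.4% were called higher and 8.83% lower with DAC, 7.12% and 3.02% with ATRA, and 35.1% and 14.7% with DAC + ATRA, and the medians were 0.24, 0.00 and 0.22. Among the kinases, all 4 JAK genes were tested. JAK1 and JAK3 rose with DAC, by 0.78 (limma adjusted p = 4.37e-07) and 1.37 (adjusted p = 7.41e-10), and all 4 rose with DAC + ATRA (backgrounds 33.4% and 35.1%), of which TYK2 was not called under the other 3 scalings. JAK2, the kinase of the GM-CSF receptor, had means of 986 normalized reads in untreated cells, 1164 with DAC, 1078 with ATRA and 1959 with both drugs, and among the comparisons with untreated cells passed in that of DAC + ATRA (0.99, adjusted p = 2.45e-08). On the log2 scale the 4 genes had a median of 0.59 with DAC and 0.95 with DAC + ATRA, where all symbols had 0.24 and 0.22.

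Of 20 cytokine receptor chains, 10 were tested. With DAC 6 rose and 0 fell, with ATRA 3 rose and 0 fell, and with DAC + ATRA 7 rose and 0 fell, where 33.4%, 7.12% and 35.1% of all genes were called higher. The list's medians were 0.84, 0.25 and 1.07, beside 0.24, 0.00 and 0.22 over all genes. IL4R lost its DAC call under the other 3 scalings. IL21R, the interleukin-21 receptor, rose by 2.64 with DAC (adjusted p = 2.24e-09), from a mean of 14.7 normalized reads in untreated cells to 96.7. IL12RB1, a chain of the interleukin-12 receptor, rose with each treatment, by 2.17, 1.42 and 3.12. IFNAR2, a chain of the type I interferon receptor, also rose with each, by 0.48, 0.70 and 1.23. CSF2RB, the shared chain of the GM-CSF receptor, rose with DAC (1.25, adjusted p = 7.65e-08) and with DAC + ATRA (adjusted p = 3.85e-09), from a mean of 205 normalized reads to 488 and 579. IL13RA1 rose by 1.25 and 1.46 in the same comparisons, and IL10RB with ATRA and DAC + ATRA by 0.63 and 0.86. The lowest values were 0.21 for IFNAR1 with DAC, -0.38 for IL6R with ATRA and 0.16 for IFNGR2 with DAC + ATRA, of which none passed, and IL6R was called lower with ATRA under library size scaling and TMM.

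Of 15 other inhibitors, 9 were tested, and with DAC 3 were higher, 2 lower and 4 not called, where 33.4% of all genes were called higher and 8.83% lower. The median was 0.13, below the 0.24 of all genes, and turned to -0.06 with TMM, where 3 were higher and 4 lower. USP18, which restrains interferon receptors, rose with DAC (0.76), ATRA (0.81) and DAC + ATRA (0.43). SH2B3, an adaptor that restrains JAK2, rose by 1.01 with DAC and 1.00 with DAC + ATRA, and PIAS4, a SUMO ligase that binds STAT proteins, by 0.96 and 0.71. The phosphatase gene PTPN11 fell by 0.30 with DAC and by 0.41 with DAC + ATRA on the log2 scale, and PIAS2 fell by 0.51 with DAC.

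Of 20 genes known to be driven by STAT proteins, 15 were tested. With DAC 11 were higher and 0 lower, with ATRA 4 were higher and 1 lower, and with DAC + ATRA 10 were higher and 0 lower. Of all genes, 33.4%, 7.12% and 35.1% were called higher in these comparisons. The list's median on the log2 scale was 0.98 for DAC, 0.15 for ATRA and 1.16 for the combination, beside 0.24, 0.00 and 0.22 over all genes. PIM1, a kinase gene driven by STAT3 and STAT5, had means of 2122 normalized reads in untreated cells, 15101 with DAC, 4518 with ATRA and 25403 with both drugs, and rose by 2.83, 1.07 and 3.58. IRF1 and ICAM1 rose most with ATRA, by 2.62 and 1.44, and by 3.67 and 2.46 with DAC + ATRA. CIITA, the regulator of MHC class II genes, was highest of the list with DAC + ATRA (4.14, adjusted p = 3.35e-10), and BCL3 with DAC (2.89, adjusted p = 1.15e-05). Both genes reached 10 normalized reads only in DAC and DAC + ATRA libraries, and both are in the counts above. They passed the filter through groups where they are high, so that their calls are a description only. OSM rose by 2.50, 1.00 and 2.09 with DAC, ATRA and DAC + ATRA, JUNB by 1.42 and 1.35 and PIM3 by 0.98 and 1.16 with DAC and DAC + ATRA. BCL2L1 rose by 0.62 and 0.89 with DAC and DAC + ATRA, and its DAC call was lost with TMM (adjusted p = 0.013). CCND2, a cyclin gene, rose by 0.66 with DAC and by 0.41 with DAC + ATRA and fell by 0.55 on the log2 scale with ATRA. The lowest values were 0.30 for ID2 with DAC and -0.28 for FCGR1A with DAC + ATRA, and neither passed.

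**Figure D5:**
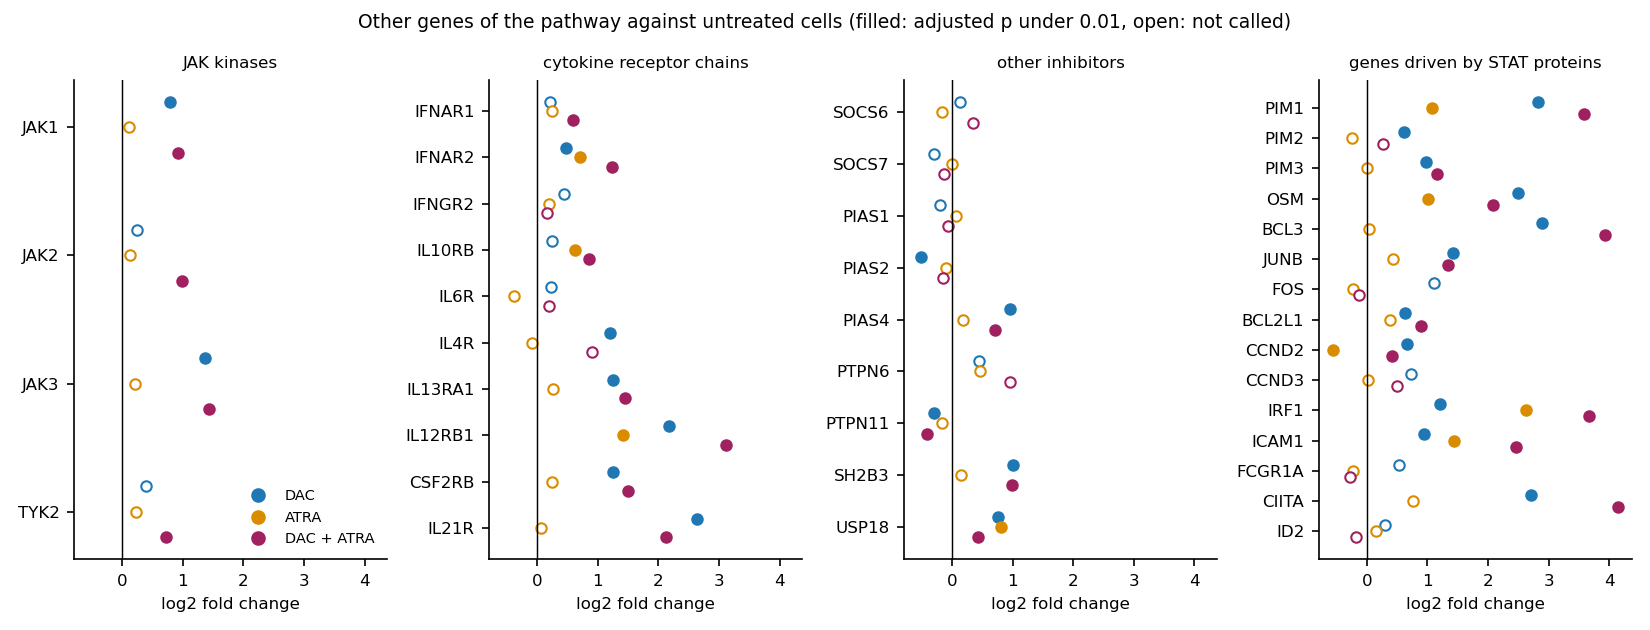
Log2 fold change against untreated cells (horizontal axis) of the tested genes of 4 lists, for DAC (blue), ATRA (orange) and DAC + ATRA (purple). Filled points passed an adjusted p under 0.01 and open points did not. CIITA with DAC + ATRA (4.14) lies farthest right, and PIAS2 with DAC (-0.51) and CCND2 with ATRA (-0.55) farthest left among the filled points. CIITA and BCL3 reached 10 normalized reads only in DAC and DAC + ATRA libraries, so that their filled points are a description only.

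The transcripts most like each member were sought by the correlation of log2 values over the 12 libraries, which share their 4 treatment groups and size factors, so that these values are descriptions. SOCS3 was most like RUBCN (Pearson r = 0.996, Spearman rho = 0.965), OAS1 (r = 0.994, rho = 0.965) and FUCA1 (r = 0.993, rho = 0.986). STAT3 was most like MTUS1 (r = 0.997, rho = 0.982), TNFSF8 and ZNF784. For STAT6 the nearest was ZNF792 (r = 0.995, rho = 0.895), for SOCS1 HAPLN1 (r = 0.982, rho = 0.888), for SOCS2 DCAF4 (r = 0.952, rho = 0.916) and for STAT5B C19orf54 (r = 0.924, rho = 0.937). Among the members themselves, SOCS1 and STAT6 were closest (r = 0.963), and STAT5B had a negative r with each of the other 5, down to -0.62 with SOCS2.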

How the data were processed

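According to the labels and the study's methods, total RNA was depleted of ribosomal RNA, sequenced as stranded paired-end libraries, aligned to hg38 with STAR and counted per transcript with HTSeq. Counting mode, strand setting and tool versions are not given in the sources used here. The authors deposited a signal per transcript, namely HTSeq counts over a DESeq2 size factor per library. Whole reads were recovered from it (100% of values, with deviations of at most 5.73e-05 reads). Transcripts were matched to GENCODE 44 by identifier, otherwise by symbol. The rule for naming took, for each gene, the most abundant protein-coding transcript, other member transcripts with a mean of at least 10, and from each pathway list the lowest and highest gene and those called in 2 or more comparisons with untreated cells. IL4R and member transcripts with a mean below 10 were added after their values were seen. The plan allowed for raw counts and edgeR, and the log-scale test for normalized values applied.

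Protein-coding transcripts with at least 10 normalized reads in at least 3 libraries were tested with limma 3.58.1 (R 4.3.3, trend and robust) on log2(normalized reads + 1), all 12 libraries in 1 fit, with Benjamini-Hochberg adjustment over all transcripts tested and a threshold of 0.01. Fold changes on this scale can understate those of low transcripts. An exact permutation test of 3 against 3 libraries cannot go below p = 0.1 and is not printed. Alternatives were edgeR 4.0.16, DESeq2 1.42.0, other scalings, filters and pseudocounts, all transcripts, sums by symbol and leaving out each library. The members and gene lists were chosen with earlier results of these data known. Scripts were tested on simulated data. Promoters are from RefSeq. Python 3.11.15 was used.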

Additional observations from a re-analysis of the deposited data

Results flagged for a closer look

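For 3 pathway genes the effect of DAC differed with and without ATRA in the interaction term of the limma fit. This term uses the untreated cells, so that the limit from their labelled harvest time applies. JAK2 rose more with both drugs than the single log2 fold changes add up to, with an interaction of 0.63 (adjusted p = 0.00851). USP18 was lower than that sum, with an interaction of -1.14 (adjusted p = 4.58e-05), and so was OSM, at -1.42 (adjusted p = 0.0043). All 3 remained called with library size scaling, with size factors from protein-coding transcripts and with TMM in edgeR. Groups of 3 libraries are too small for a test of single outlying libraries.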

How the results depend on the processing

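No paired analysis was possible because the columns of the deposited table carry a treatment but not the replicate numbers of the labels. The count of members called with DAC was 7. It fell to 4 with DESeq2 (2273 of all 9016 transcripts called higher) or a pseudocount of 0.1 (2686 of 9016). It was 3 of 4 tested when 10 normalized reads were required in every library (1620 of 6030). It was also 4 in edgeR with TMM without DAC library 6 (2107 of 9016), an alternative chosen after seeing the data, and 4 to 7 when each library was left out. With ATRA the count of 2 became 6 at an adjusted p under 0.05 (3 higher and 3 lower), where 848 of all 9016 transcripts were higher and 469 lower. It was 0 without a filter on low values (571 of 25317 higher and 211 lower) or with only the groups compared (420 of 9016 higher and 156 lower). It was 0 to 2 over libraries left out, with 0 without untreated library 2 or 3 and 1 without ATRA library 7. With DAC + ATRA the 5 became 12 among all transcripts (11 higher, 1 lower), where 4945 of 19373 were called higher and 3120 lower. The count was 8 at an adjusted p under 0.05 (3475 of 9016 higher) and 3 with the stricter filter (1681 of 6030 higher). That filter also left 3 against ATRA alone in place of 8 (1249 of 6030 higher). Against ATRA alone, DESeq2 and TMM without DAC library 6 each gave 7 higher and 1 lower, the member called lower being STAT5B in both. Of all 9016 transcripts, 2054 were higher and 1195 lower with the former, and 2113 and 1388 with the latter. The interaction count of 0 became 1 with DESeq2 and 0 to 1 over libraries left out, with 1 without ATRA library 9, in both cases STAT3. The cause of these shifts was not tested, beyond the fewer or more transcripts tested under other filters.

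Near 0 the sign was not stable. STAT5B with DAC + ATRA turned to -0.11 with library size scaling, -0.09 with size factors from protein-coding transcripts, -0.10 with edgeR and TMM, -0.10 with DESeq2 and -0.12 with TMM without DAC library 6. STAT5B with DAC ranged from -0.08 to 0.01 over libraries left out, the latter without DAC library 5. SOCS2 ENST00000536696, DAC + ATRA against DAC, was 0.00 with protein-coding size factors, 0.01 with TMM, 0.45 with TMM without DAC library 6, and -0.37 to 0.34 over libraries left out (0.34 without DAC library 6 and 0.28 without DAC + ATRA library 12). The sum over all SOCS2 transcripts gave 0.00 there. Of the other values of single members, 813 kept direction and side of the threshold, 12 lost and 9 gained a call. SOCS1, SOCS3, STAT3 and STAT6 kept their DAC calls when each library was left out. Low SOCS2 counts limit what single transcripts can show.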
